A study of Mus musculus with 48 samples.

Results

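Newly made RNA was compared between release from a block at the start of S phase and 1 h later, in vehicle-treated mouse embryonic stem cells (ESCs). The comparison rests on 4 of the 48 libraries of the series: 2 taken at release (0 h) and 2 taken 1 h later, from the ethanol arm of the synchronized experiment. All came from FOXD3-iKO cells, an ESC line in which 4-hydroxytamoxifen (4HT) removes the pluripotency factor FOXD3. The cells grew in the medium labelled L2i, were held by a double thymidine block and were released 24 h after ethanol, the solvent of 4HT. RNA was tagged with 4-thiouridine (4SU) for 15 min, so that the counts describe RNA made around each time point. For comparison, the same hour was read in 2 and 2 libraries of 4HT-treated cells, and the following hour in 2 ethanol libraries at 2 h. The labels do not say whether replicates were separate cultures, so the p-values speak only of how far these samples spread, and that spread may be technical. No added RNA was counted, so every level is relative to its library, and fewer cells making an RNA cannot be told apart from less RNA made per cell.

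Excess thymidine unbalances the deoxynucleotide pools and stalls DNA synthesis, so a double block gathers cells at the start of S phase, and washing it out lets replication go on. Cells then need large amounts of new histone protein, because every copied stretch of DNA must be wrapped again. The genes for mitosis form another cell cycle programme, which in most cell types is held low in G1 and rises towards G2 through the DREAM and MuvB complexes and the factors B-Myb and FOXM1. ESCs have a short G1 and weak RB control, and they go through the cycle fast.

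The 4 libraries held 8093039 and 14680581 counts at 0 h, and 14259506 and 14057125 at 1 h. Levels are counts scaled to a common library total (CPM) after scaling by the trimmed mean of M values (TMM). Replicates of 0 h correlated at 0.991 in log2 CPM across genes and those of 1 h at 0.988. Of 8 ESC markers 7 were measured, with summed levels of 2992 to 3087 CPM at 0 h and 2913 to 3014 at 1 h. The eighth, Sox2, is listed at 0 in all 4 libraries, and its interval lies inside that of Sox2ot on the same strand. Fibroblast markers summed to 24.9 to 26.1 CPM at 0 h and 21.6 to 21.8 at 1 h, with Postn, Dcn and Prrx1 at 0. Foxd3, the gene that 4HT removes, stood at 5.84 and 5.56 CPM at 0 h and at 5.72 and 8.24 at 1 h, against 1.18 to 2.19 over the 12 synchronized 4HT libraries. Its change over the hour did not pass the test (log2 fold change 0.29, SE 0.285, adjusted p = 0.476). The loci Gm26917 and Gm42418, which collect ribosomal RNA reads, took 4.92% and 3.41% of the counts at 0 h and 14.7% and 22.8% at 1 h. They took 15.6% to 19.7% in the 4HT libraries of the same hours, and the part of this share in the results below was not tested.

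Of 17739 genes tested, 3249 (18.3%) differed between 1 h and 0 h at an adjusted p under 0.05 (edgeR's quasi-likelihood test, Benjamini-Hochberg adjustment). Newly made RNA of 1842 genes (10.4%) was higher at 1 h and that of 1407 (7.93%) was lower, with a median of -0.07 (log2) over all genes. A change of over 2-fold was reached by 280 of the higher and 418 of the lower genes. Groups of 2 separate easily: both libraries of 1 h lay above both of 0 h in 30.2% of genes and below them in 38.3%. The balance of the calls depended on scaling. Total counts alone gave 649 higher and 1087 lower, and total counts outside Gm26917 and Gm42418 gave 2292 higher and 770 lower, with the median of all genes moved to 0.11. Leaving out any 1 of the 4 libraries cut the calls, to 1798 and 700 without replicates 1 and 2 of 0 h, and to 1325 and 1330 without replicates 1 and 2 of 1 h.

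The replication-dependent histone genes, which supply histone protein during S phase and whose mRNAs end in a stem-loop in place of a poly(A) tail, rose nearly as a whole. Of 64 measured genes 59 rose, against 10.4% of all genes, and the median member rose by 1.59 on the log2 scale. Their summed level was 1051 and 645 CPM at 0 h and 2157 and 2460 at 1 h, a 2.72-fold difference of the means. Both libraries of 1 h lay above both of 0 h for 63 of the 64, against 30.2% of all genes. All 5 histone classes took part, with summed levels 2.54-fold higher for linker H1 (6 of 6 genes rose), 3.17-fold for H2A (15 of 18), 2.52-fold for H2B (15 of 16), 2.29-fold for H3 (11 of 11) and 3.4-fold for H4 (12 of 13).

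**Figure D1:**
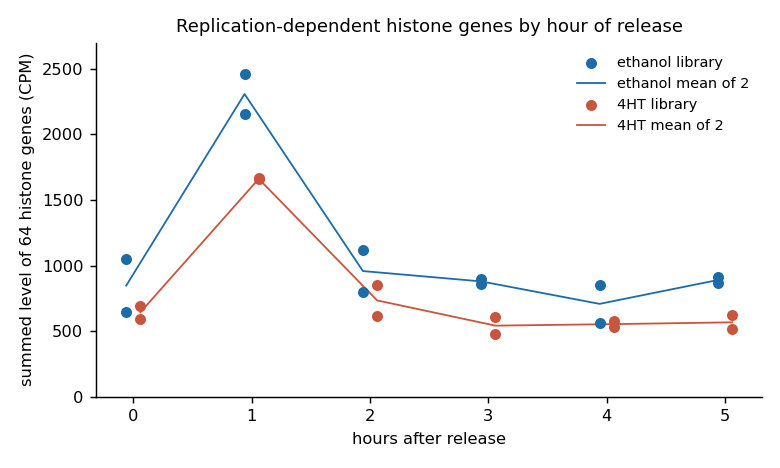
Summed level (CPM) of the 64 replication-dependent histone genes in each synchronized library (points) against hours after release, with the mean of the 2 replicates (lines), for ethanol and 4HT. The ethanol libraries at 1 h stand at 2157 and 2460 CPM, above all other libraries, and those at 2 h are at 1121 and 796.

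Single genes show the size of the step. Hist1h2bh, an H2B gene, went from 2.49 and 0.988 CPM at 0 h to 11.4 and 19.4 at 1 h, so that even the lower 1 h library was well above both 0 h libraries. Its log2 fold change was 3.26 (SE 0.355, edgeR adjusted p = 5.57e-05). Hist1h1e, a linker histone gene, went from 8.11 and 5.62 to 36.3 and 44.1 CPM (2.58, SE 0.29, edgeR adjusted p = 7.38e-05). Hist2h3b, an H3 gene, rose from 3.35 and 2.22 to 14.4 and 17.0 CPM. Hist1h4i, an H4 gene, rose from 23.4 and 17.6 to 61.8 and 64.7 CPM. The testis-type pair Hist1h2ba and Hist1h2aa, known from germ cells, rose from low levels: Hist1h2ba stood at 0.649 and 0.556 CPM at 0 h and at 5.48 and 6.75 at 1 h. At the other end, the 5 genes that did not pass the test were Hist1h2bp, Hist1h4a, Hist1h2ap, Hist1h2aj and Hist2h2ab, with log2 fold changes of 0.49 to 0.83. Histone genes are near-identical copies, and no source used here says how the authors counted reads that match several of them, so single members have less certain values than the sums. Without replicate 2 of 0 h, 36 of the 64 were called; without the other libraries of the comparison, 45 to 59.

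H2B promoters are known for an octamer, ATTTGCAT, bound by OCT1 with its S-phase coactivator, and histone promoters for CCAAT boxes, bound by NF-Y. In RefSeq promoters (GRCm38.p6, 250 bases before to 50 after the start), matched for 57 of the 64 genes, the octamer was found in 5 of 14 H2B promoters and in 6 of 16 H2A promoters, which often share the window between divergent H2A and H2B genes. It was in 1.5% of all 12432 matched promoters, either strand counted. A CCAAT box was in 84.2% of the histone promoters, in all of H1, H2A, H2B and H3 and in 25% of H4, against 38.6% of all. The octamer search was added after the values were seen. Of the 5 H2B promoters with the octamer, 4 are shown as the 250 bases before the start, 5' to 3' on the gene's strand, with the octamer and each CCAAT or its reverse complement ATTGG in capitals. They are Hist1h2ba (chr13:23934157-23934406, minus strand), Hist1h2bg (chr13:23571150-23571399, plus strand), Hist1h2bm (chr13:21721794-21722043, plus strand) and Hist1h2bk (chr13:22035571-22035820, plus strand).
Hist1h2ba: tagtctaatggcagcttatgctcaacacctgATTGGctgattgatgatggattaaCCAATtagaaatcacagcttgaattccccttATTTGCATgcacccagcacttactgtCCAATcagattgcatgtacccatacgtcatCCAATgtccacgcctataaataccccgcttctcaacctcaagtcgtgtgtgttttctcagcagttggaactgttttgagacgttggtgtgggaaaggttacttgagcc
Hist1h2bg: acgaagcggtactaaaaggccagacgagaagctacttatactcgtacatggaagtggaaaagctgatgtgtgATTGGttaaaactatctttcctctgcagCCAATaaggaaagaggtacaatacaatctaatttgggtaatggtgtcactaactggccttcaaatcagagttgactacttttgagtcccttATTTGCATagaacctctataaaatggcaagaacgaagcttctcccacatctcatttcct
Hist1h2bm: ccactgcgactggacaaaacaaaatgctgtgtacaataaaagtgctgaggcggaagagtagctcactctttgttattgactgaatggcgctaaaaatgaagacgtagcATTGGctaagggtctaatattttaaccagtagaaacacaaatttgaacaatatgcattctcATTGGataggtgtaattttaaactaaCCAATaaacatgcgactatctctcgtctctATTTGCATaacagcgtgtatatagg
Hist1h2bk: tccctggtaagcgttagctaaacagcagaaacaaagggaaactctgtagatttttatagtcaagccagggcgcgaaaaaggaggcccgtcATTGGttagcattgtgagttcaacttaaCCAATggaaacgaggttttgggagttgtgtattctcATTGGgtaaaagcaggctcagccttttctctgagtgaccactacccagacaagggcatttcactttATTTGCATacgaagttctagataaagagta
These 4 genes rose by 3.34, 1.03, 1.10 and 1.39 (log2) in the order shown. The H2B promoters without the octamer letters belong to genes that ran from 0.58 (Hist1h2bp, not called) to 3.39 (Hist3h2ba).

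Genes that process, modify and load histones were mixed. Of 17 genes of histone supply and chromatin assembly 2 rose (11.8%, against 10.4% of all genes) and 2 fell (11.8%, against 7.93%). The median was -0.12. Zfp473, a partner of the histone pre-mRNA processing machinery, rose from 17.7 and 15.8 CPM to 27.7 and 31.0 (0.81, SE 0.0983, edgeR adjusted p = 0.000127), and the histone chaperone Asf1b rose by 0.67. The chaperone subunit Rbbp7 and the histone acetyltransferase Hat1 fell by 0.62 and 0.42. Slbp, whose protein binds the histone stem-loop, stood at 108 and 113 CPM at 0 h and 105 and 97.4 at 1 h, and Npat, the activator of histone genes, at 89.6 and 106 and at 60.8 and 85.6. Neither passed the test.

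Genes of G2 and mitosis also rose as a group. Of 36 genes 26 rose (72.2%, against 10.4% of all genes) and the other 10 did not pass the test, with a median of 0.81. Both 1 h libraries lay above both 0 h libraries for 32, against 30.2% of all genes. Plk1, the kinase that drives mitotic entry and spindle assembly, went from 17.0 and 17.1 CPM to 52.6 and 54.0. That is a log2 fold change of 1.64 (SE 0.134, edgeR adjusted p = 4.89e-06), with replicates that differ by far less than the groups. Racgap1, which organizes the central spindle for cytokinesis, went from 43.3 and 40.9 to 99.95 and 100.2 CPM (1.25, SE 0.0976, edgeR adjusted p = 4.36e-06). Aurka, the centrosome kinase, went from 68.9 and 60.6 to 148 and 156 CPM (1.23, SE 0.1, edgeR adjusted p = 4.89e-06).

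The rest of the programme covered several roles. Cdc20, the activator of the anaphase-promoting complex, rose by 1.23 and Ube2c, its E2 enzyme, by 1.43. Espl1, the gene of separase, which cuts cohesin at anaphase, rose by 1.59. Of the cyclin and CDK engine of mitosis, Cdk1 rose by 0.88, Ccnb1 by 0.54 and Ccnb2 by 0.67, with the activating phosphatases Cdc25b and Cdc25c at 0.95 and 0.91. Top2a, which untangles sister DNA, rose from 126 and 141 to 299 and 273 CPM, and the spindle factor Tpx2 from 89.6 and 86.6 to 204 and 188. Foxm1, the activator of this programme, rose by 0.83. The 10 genes that did not pass were Bub1, Ect2, Sgo1, Nuf2, Ttk, Wee1, Mki67, Cenpe, Kif11 and Cenpf, with values from -0.20 to 0.64. A pair of genes outside the list, chosen after their values were seen, rose more than Plk1: Pimreg, a mitotic regulator, from 0.649 and 0.556 to 2.49 and 2.63 CPM, and Lockd, a noncoding RNA beside Cdkn1b, from 1.19 and 1.48 to 4.87 and 5.54 CPM. The count held at 24 to 25 without each of the 4 libraries in turn.

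**Figure D2:**
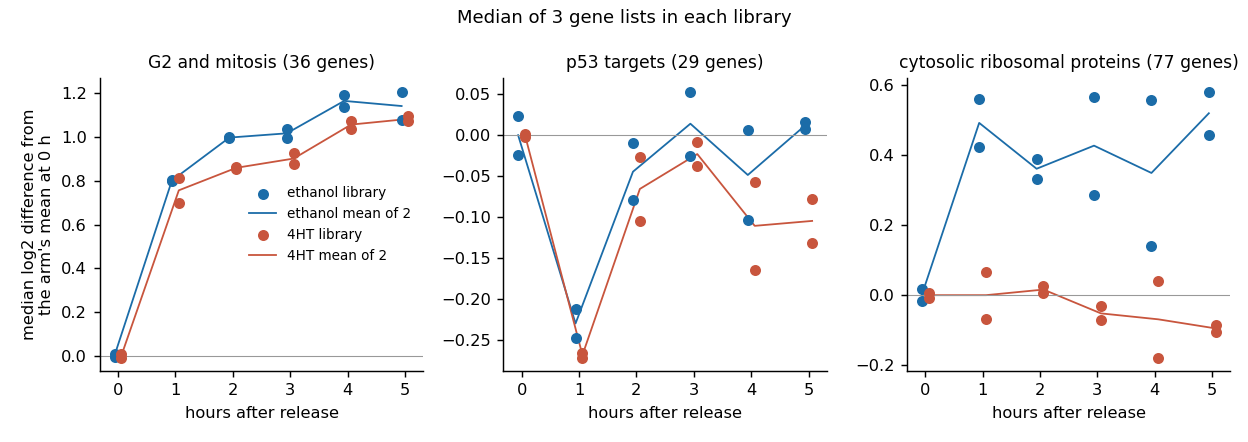
Median log2 difference of each list from the mean of its own arm at 0 h (log2 of CPM plus 0.1), in each library (points) against hours after release, with means of 2 (lines). The G2 and mitosis median reaches 0.81 and 0.80 in the ethanol libraries at 1 h and lies between 0.99 and 1.21 at 2 to 5 h, p53 targets stand lowest at 1 h in both arms, and cytosolic ribosomal proteins rise in ethanol while the 4HT libraries at 1 h lie at -0.07 and 0.07.

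Promoters of mitotic genes are known for the CHR element, TTTGAA or TTCGAA, through which DREAM and MuvB bind, together with CCAAT boxes. RefSeq promoters were matched for 29 of the 36 genes. The CHR letters were in 24 of the 29 (82.8%) against 14.4% of all 12432, a CCAAT box in 23 (79.3%) against 38.6%, and both in 72.4% against 6.2%. Among histone promoters 49.1% held the CHR letters. The CHR search was added after the values were seen, and a match is a description, not a site. Shown for 5 rising genes are the 250 bases before the start, with CHR letters and CCAAT or ATTGG in capitals on either strand (TTCAAA is TTTGAA read on the other strand). Matches that lie after the start are not shown. In the 250 bases before the start, 11 of the 29 promoters (37.9%) held CHR letters, against 12.9% of all 12432. The genes are Plk1 (chr7:122159185-122159434, plus strand), Cdc20 (chr4:118437344-118437593, minus strand), Espl1 (chr15:102296043-102296292, plus strand), Cdk1 (chr10:69352913-69353162, minus strand) and Top2a (chr11:99024190-99024439, minus strand).
Plk1: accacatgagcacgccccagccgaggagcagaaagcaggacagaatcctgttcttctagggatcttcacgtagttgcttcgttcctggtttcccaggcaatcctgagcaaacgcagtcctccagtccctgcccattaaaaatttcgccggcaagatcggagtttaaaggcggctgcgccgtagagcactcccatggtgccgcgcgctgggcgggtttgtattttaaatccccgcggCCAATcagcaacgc
Cdc20: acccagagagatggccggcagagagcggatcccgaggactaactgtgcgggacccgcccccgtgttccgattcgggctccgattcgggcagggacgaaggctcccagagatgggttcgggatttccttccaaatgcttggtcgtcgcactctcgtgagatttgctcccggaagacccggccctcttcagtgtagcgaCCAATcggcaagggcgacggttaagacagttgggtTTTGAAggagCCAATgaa
Espl1: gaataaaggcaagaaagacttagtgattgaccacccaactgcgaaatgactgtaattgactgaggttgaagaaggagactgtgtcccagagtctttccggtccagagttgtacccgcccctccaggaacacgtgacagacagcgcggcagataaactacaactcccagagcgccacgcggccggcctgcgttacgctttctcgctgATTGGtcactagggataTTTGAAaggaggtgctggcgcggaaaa
Cdk1: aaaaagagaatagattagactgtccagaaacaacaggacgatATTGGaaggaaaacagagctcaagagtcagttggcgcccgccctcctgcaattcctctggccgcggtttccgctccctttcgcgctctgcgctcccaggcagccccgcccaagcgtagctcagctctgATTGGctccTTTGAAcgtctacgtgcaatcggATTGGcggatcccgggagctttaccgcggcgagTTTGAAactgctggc
Top2a: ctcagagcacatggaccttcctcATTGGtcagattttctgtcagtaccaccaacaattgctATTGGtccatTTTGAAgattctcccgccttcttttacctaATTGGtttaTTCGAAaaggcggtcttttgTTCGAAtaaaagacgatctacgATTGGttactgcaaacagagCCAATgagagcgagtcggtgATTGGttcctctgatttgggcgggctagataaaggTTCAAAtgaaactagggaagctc
Plk1 holds a single CCAAT close to its start and no CHR letters in the stretch shown, whereas Cdc20, Espl1, Cdk1 and Top2a hold both.

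The other motifs were counted over the 1479 matched promoters of the genes that rose. The E2F letters TTTCGCGC, TTTGGCGC or TTTCCCGC were in 3.99% against 3.39% of all, CRE (TGACGTCA) in 3.18% against 3.04%, AP-1 (TGANTCA) in 3.99% against 5.24% and the heat shock letters GAANNTTC in 5.81% against 5.87%. The CArG box was in 1.15% against 1.38%, and CCAAT in 42.3%, or in 40.3% outside the histone and mitotic lists. Promoters were matched for 71.8% of the genes that fell, fewer than 80%, so that check is void. All tested genes, the background of every motif share given here, were matched for 70.1%, also fewer than 80%. The comparisons with all promoters are therefore descriptions only. E2F letters were in 17.5% of the histone promoters and 3.45% of the mitotic ones.

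The DNA replication machinery was mixed. Of 45 genes 3 rose (6.67%, against 10.4% of all genes) and 3 fell (6.67%, against 7.93%), with a median of 0.07. Pold2, a subunit of the lagging-strand polymerase delta, rose from 2.27 and 3.58 CPM to 5.17 and 6.96 (0.99, SE 0.25, edgeR adjusted p = 0.0137), and the helicase subunits Mcm2 and Gins2 rose by 0.40 and 0.49. Pold3, another polymerase delta subunit, fell by 0.45, the helicase subunit Gins1 by 0.52 and the origin-firing factor Ticrr by 0.34. The sliding clamp Pcna stood at 96.3 and 97.9 CPM at 0 h and at 84.2 and 91.8 at 1 h, which did not pass the test (-0.14, SE 0.108). None of these 6 calls is steady: without replicates 1 and 2 of 0 h 2 and 1 genes were called higher and 0 lower, without replicate 1 of 1 h 1 was higher and 2 lower, and without replicate 2 of 1 h edgeR called 0 in either direction.

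Nucleotide synthesis and the control of S phase entry were mixed. Of 23 nucleotide synthesis genes 7 rose (30.4%, against 10.4% of all genes) and 1 fell (4.35%, against 7.93%), with a median of 0.10. The risers include Cad, which starts pyrimidine synthesis, from 31.6 and 32.3 to 52.2 and 61.6 CPM (0.83), Dhodh of the same pathway (0.59), Rrm2, the S-phase subunit of ribonucleotide reductase (0.59), and thymidine kinase Tk1 (0.42). Without 1 of the 4 libraries 1 to 4 genes of this list were called higher. Of 30 genes of G1 to S control 5 rose (16.7%, against 10.4% of all genes) and 4 fell (13.3%, against 7.93%). The risers were cyclins Ccne1 (0.53) and Ccnd1 (0.64), Cdk4 (0.39), E2f4 (0.67) and Fbxo5 (0.44). Rb1, Rbl1, Rbl2 and Cdkn2a fell, by 1.30, 0.33, 0.47 and 0.45. Rb1, which spans 142150 bases, went from 153 and 197 CPM to 50.1 and 91.7. Without each of the 4 libraries in turn 1 gene of this list was called higher and 0 to 2 lower, the 0 without replicate 2 of 0 h.

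Targets of p53, the factor that answers DNA damage and replication stress, leaned down. Of 29 genes 6 fell (20.7%, against 7.93% of all), and 1 rose. The median was -0.26, against -0.07 over all genes, and 20 of the 29 had values below 0. Trp53inp1, a stress-induced cofactor of p53, went from 421 and 511 CPM to 221 and 304 (-0.83, SE 0.167, edgeR adjusted p = 0.00425). Btg2, an antiproliferative gene, went from 87.7 and 72.5 to 55.7 and 55.7 CPM (-0.52), Sesn1 fell by 0.79, the repair nuclease Ercc5 by 0.79 and the death receptor Fas by 1.35. The classical readouts did not pass: Mdm2 stood at 330 and 353 CPM at 0 h and at 285 and 263 at 1 h, and Cdkn1a, the inhibitor p21, at 141 and 142 and at 137 and 153. Tigar, a metabolic phosphatase, rose by 0.51. Without replicates 1 and 2 of 0 h 3 and 1 genes were called lower, without replicates 1 and 2 of 1 h 1 and 4, and with the length trend removed 12.

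Immediate early genes, which answer signals within minutes without new protein, were mixed. Of 36 genes 5 fell (13.9%, against 7.93% of all genes) and 4 rose (11.1%, against 10.4%). Fos went from 9.41 and 6.36 CPM to 2.37 and 2.77, so that both 1 h libraries lay below both of 0 h (-1.59, SE 0.299, edgeR adjusted p = 0.00281). Fosb went from 2.05 and 1.61 to 0.426 and 0.355 CPM, the small MAF gene Maff from 6.60 and 3.71 to 1.83 and 1.92, and the stress factor Atf3 from 46.2 and 32.4 to 20.1 and 22.2. With Btg2 these are the 5 that fell, and all 5 were also called lower in 4HT. In 4HT 9 of the 36 were called lower, against 2.98% of all genes there, and 0 higher, against 3.19%. Gadd45b (0.76), Rhob (0.60), Plaur (0.50) and Klf10 (0.41) rose. Without replicates 1 and 2 of 0 h 2 and 1 genes of the list were called higher, and without replicates 1 and 2 of 1 h 1 and 0, while 3 to 4 were called lower. Of 17 cAMP and CREB response genes 4 fell (23.5%, against 7.93% of all genes) and 1 rose (5.88%, against 10.4%). The 4 were Fos and Fosb with the GTPase gene Gem (-1.20) and the phosphodiesterase gene Pde10a (-1.11). The coactivator gene Crtc2 rose (0.64). Of the 17 genes 2 were called lower without replicate 2 of 0 h, and 2 without replicate 2 of 1 h.

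Genes of the ribosome were higher at 1 h in ethanol. Of 77 genes of cytosolic ribosomal proteins 53 rose (68.8%, against 10.4% of all genes), and 75 had values above 0. Their median was 0.48, against -0.07 over all genes. Rplp0, of the ribosomal stalk, went from 89.6 and 89.4 CPM to 144.7 and 144.8 (0.69, SE 0.147, edgeR adjusted p = 0.00563). In the 4HT libraries the same 77 genes ran from -0.375 to 0.31 with a median of 0.01, and 42 of 77 had the same sign. The count moved with single libraries: 13 and 4 genes were called without replicates 1 and 2 of 0 h, 29 and 2 without replicates 1 and 2 of 1 h. With the length trend removed 10 were called, with total counts alone 13, and in a fit of the 12 ethanol libraries 0 by edgeR. These genes are short (median 3232 bases), and the part of length and of the Gm26917 and Gm42418 share in this rise was not tested.

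Ribosome biogenesis and glycolysis followed in part, with 37% and 42.9% of their genes called higher, against 10.4% of all genes. Of 27 ribosome biogenesis genes 10 rose (median 0.35), among them the nucleolar factors Nop2 (0.62), Nop56 (0.66), Bop1 (0.79) and Ppan (0.85), the spermidine synthase Srm (0.90), and Polr1b of RNA polymerase I (0.43). Of 21 glycolysis genes 9 rose (median 0.32). Ldha, which makes lactate, went from 48.7 and 48.7 CPM to 84.2 and 87.8 (0.82, SE 0.127, edgeR adjusted p = 0.000815), and Pgam1 rose by 0.62. Both were also called in 4HT, at 0.56 and 0.49. Of 23 cholesterol synthesis genes 6 rose (26.1%, against 10.4% of all genes), among them Lss (0.74) and Mvk (0.79). Of 18 heat shock genes 5 rose (27.8%, against 10.4% of all genes). The co-chaperone gene Hsph1 went from 47.4 and 40.0 to 80.1 and 73.1 CPM (0.81), and rose by 0.77 in 4HT. Leaving out replicates 1 and 2 of 0 h, then 1 and 2 of 1 h, gave 7, 5, 8 and 7 higher calls for ribosome biogenesis and 7, 3, 5 and 6 for glycolysis. The same gave 5, 3, 4 and 3 for cholesterol synthesis and 2, 2, 4 and 1 for heat shock. In 4HT 1 of the 27 ribosome biogenesis genes was called higher and 1 lower, and 3 of the 21 glycolysis genes higher. Of the 23 cholesterol synthesis genes 0 were called there, and of the 18 heat shock genes 1 was higher and 1 lower. Over all genes 3.19% were called higher and 2.98% lower in 4HT.

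**Figure D3:**
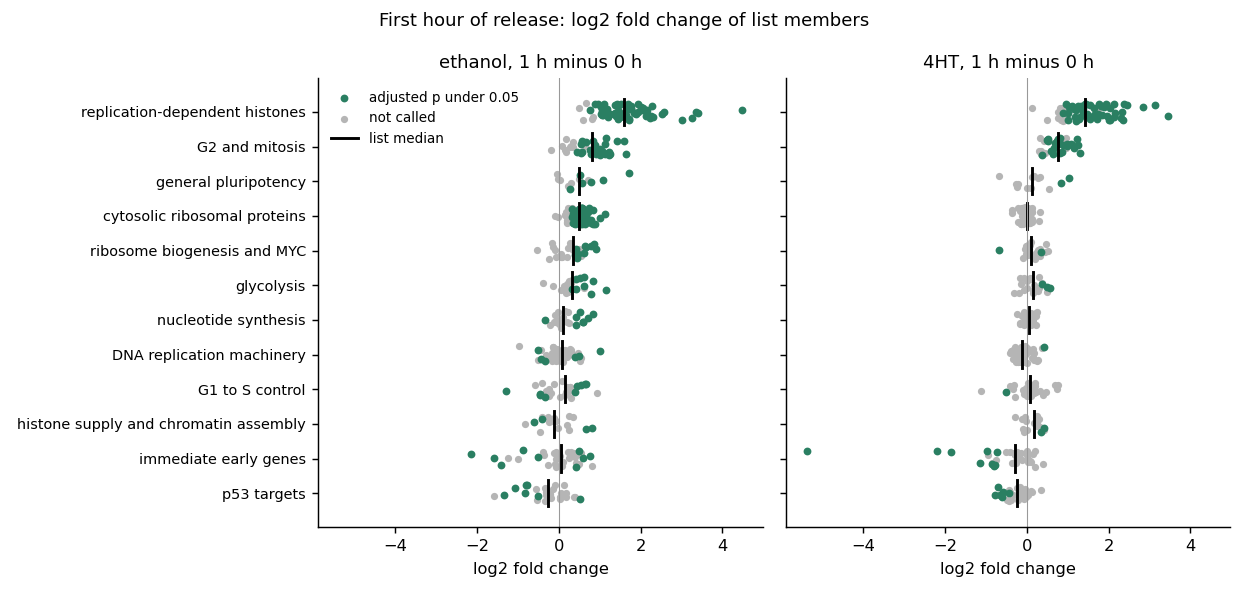
Log2 fold change at 1 h against 0 h of each member of 12 gene lists (points, green where the edgeR adjusted p is under 0.05), with the list median (bars), in ethanol (left) and 4HT (right). Histone and mitotic genes lie to the right in both arms, with medians of 1.59 and 0.81 in ethanol and 1.43 and 0.76 in 4HT; the lowest 4HT point is Fosb, listed at 0 in 1 of the 1 h libraries, so that its fitted value has no firm size.

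Pluripotency genes were divided by class in ethanol. Of 13 general pluripotency genes 6 rose, which became 3 and 2 without replicates 1 and 2 of 0 h and 3 and 3 without replicates 1 and 2 of 1 h. Zfp296 went from 8.54 and 6.18 CPM to 22.6 and 24.8 (1.71, SE 0.223, edgeR adjusted p = 0.000229), and Lin28a, which blocks let-7 maturation, from 17.1 and 14.1 to 31.6 and 34.4 (1.09, SE 0.132, edgeR adjusted p = 0.000127). Pou5f1, the gene of OCT4, rose from 71.2 and 66.9 to 111 and 126 CPM (0.78), and Sall4 by 0.57. Of 17 naive pluripotency genes 1, Tcl1 (0.70), rose. That is 5.88% of the naive genes, beside 46.2% of the general ones and 10.4% of all genes. The naive median was -0.15, and Nanog stood at 0.17 (SE 0.156) and did not pass. In 4HT, Zfp296, Lin28a and Tcl1 were called too, at 1.03, 0.83 and 0.58. Zfp296 and Lin28a were the 2 general genes called there, with a list median of 0.13. Of the naive genes 1 was called higher and 3 lower in 4HT, with a median of -0.21. Over all genes 3.19% were higher and 2.98% lower there. With the length trend removed in ethanol, 4 general genes were called higher, and of the naive genes 1 higher and 3 lower.

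Lineage and signalling genes moved singly. The primitive endoderm factor Gata6 fell from 16.8 and 15.7 CPM to 8.40 and 7.88 (-0.99, SE 0.126, edgeR adjusted p = 0.000177), and the basement membrane collagens Col4a1 and Col4a2 fell by 0.48 and 0.56. With Pdgfra (-0.54) these are 4 of 13 measured primitive endoderm genes (30.8%, against 7.93% of all), and all 4 also fell in 4HT. In ethanol 1 and 2 were called lower without replicates 1 and 2 of 0 h, 1 and 1 without those of 1 h, and 1 with the length trend removed or with total counts outside Gm26917 and Gm42418. Of 19 FGF and ERK response genes 4 rose and 3 fell (median -0.02), and 1 to 2 were called higher and 0 to 1 lower without 1 of the 4 libraries. Among its feedback inhibitors Spry4 rose from 11.7 and 9.08 to 24.0 and 22.8 CPM (1.19) and Il17rd by 0.53, at 1.16 and 0.63 in 4HT, while Spry1 (0.26), Spry2 (0.27), Spred1 (-0.93), Spred2 (-0.02), Dusp4 (-0.34) and Dusp6 (0.16) did not pass. The ERK phosphatase Dusp5 fell by 0.66, and by 0.90 in 4HT. Of the FGF and ERK list 21.1% rose and 15.8% fell, against 10.4% and 7.93% of all genes. Of 15 clock genes 2 fell (13.3%, against 7.93% of all genes), Nr1d2 by 0.82 and Tef by 0.37. Tpm1, a tropomyosin gene of the actin cytoskeleton, rose from 84.0 and 81.0 to 132.6 and 124.3 CPM (0.64), and Bmp4 from 2.16 and 1.85 to 4.81 and 4.62 (1.25).

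By the naming rule, the 15 genes with the largest falls included Htr4, Mkx, Samd12, Tmeff2, Hpgd, Cyyr1, Cadm2, Eya4, Kcnq5, Chsy3, Ugt8a, Spock3, Cacnb2 and Hmgcll1, and the 15 span 26459 to 965488 bases. Samd12, over 448728 bases, went from 76.99 and 140 CPM to 17.1 and 36.5 (-2.03, SE 0.559, edgeR adjusted p = 0.0219). Cadm2, a cell adhesion gene over 965488 bases, went from 13.3 and 20.9 to 3.77 and 5.40 CPM (-1.92, SE 0.355, edgeR adjusted p = 0.00251). Htr4, a serotonin receptor gene, went from 14.7 and 21.4 to 2.01 and 4.47 CPM. Of these 15, 1 kept its call without each of the 4 libraries in turn, and 1 was called without replicate 2 of 0 h. In 4HT their log2 fold changes ran from -1.16 (Htr4, adjusted p = 0.288) to 0.04 (Kcnq5, adjusted p = 0.992).

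Over all genes the change sank with length. The median was 0.17 under 3 kb, 0.19 at 3 to 10 kb, 0.05 at 10 to 30 kb, -0.18 at 30 to 100 kb and -0.57 over 100 kb. Of the 2514 genes over 100 kb 21.4% fell, against 7.93% of all genes, and 0.278% rose, against 10.4%. Both 1 h libraries showed it, with medians of -0.62 and -0.46 over 100 kb. In 4HT the same bin stood at 0.02 and 0.04, and 4.06% of it fell, against 2.98% of all genes there. Spearman's rho of length with the change, taken over genes that are no independent replicates, was -0.423 in ethanol and 0.092 in 4HT. With each library's length trend removed, 1393 genes (7.85%) were higher and 1094 (6.17%) lower; 57 histone genes and 27 mitotic genes were among the higher.

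**Figure D4:**
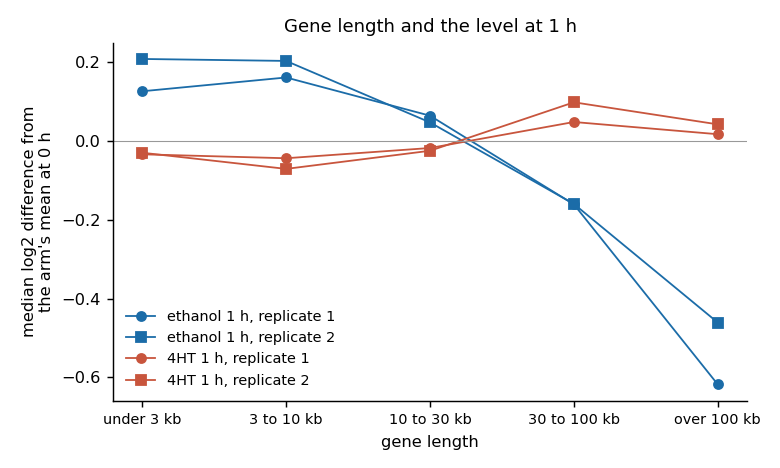
Median log2 difference from the arm's mean at 0 h (edgeR log2 CPM with a prior count of 2) for genes in 5 bins of length, in each 1 h library. Both ethanol lines fall to -0.62 and -0.46 over 100 kb, and both 4HT lines stay between -0.07 and 0.10.

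The same hour in 4HT-treated cells, in libraries not shared with the ethanol comparison, gave 1093 calls (6.16%), of which 565 (3.19%) were higher and 528 (2.98%) lower. Of the genes higher in ethanol 85.6% had the same sign in 4HT and 20.7% were called higher there; these 382 genes are 67.6% of the 4HT rises. Of the genes lower in ethanol 85.4% had the same sign and 20.8%, or 292, were called lower, 55.3% of the 4HT falls. Over all tested genes 60.5% had the same sign. Histone genes rose in 4HT too, with 46 of 64 called and summed levels of 693 and 596 CPM at 0 h and 1659 and 1665 at 1 h. So did mitotic genes, with 25 of 36 called and a median of 0.76; 22 were called in both arms. Plk1 went from 20.4 and 17.5 to 44.2 and 49.5 CPM there, and Fos from 10.6 and 6.70 to 2.55 and 2.24. Of the p53 targets 6 fell in 4HT, and 2 of them, Trp53inp1 and Btg2, fell in both arms.

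No gene passed the test of the difference between the arms (edgeR, smallest adjusted p 0.346; 2517 at an unadjusted p under 0.05; DESeq2 also called 0, with 2329 at an unadjusted p under 0.05). The median difference, ethanol minus 4HT, was 0.14 for histone genes, 0.09 for mitotic genes and 0.46 for cytosolic ribosomal proteins. Without the filter on low counts 1499 genes were called, 1491 of them also tested with the filter.

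The next hour brought few calls. From 1 h to 2 h in ethanol 70 genes (0.395%) were called, 14 (0.0789%) higher and 56 (0.316%) lower, and 35 of the 56 were histone genes. The histone sum went back to 1121 and 796 CPM at 2 h, near the 0 h values, and the median member changed by -1.43. Mitotic genes had a median of 0.15, and Plk1 stood at 58.4 and 58.6 CPM at 2 h. These comparisons share the 1 h libraries. Some genes outside the lists that rose in the first hour rose again. Emp1, a membrane protein gene, stood at 2.92 and 1.98 CPM at 0 h. It reached 9.06 and 8.17 CPM at 1 h and 21.8 and 20.9 at 2 h. Lockd reached 9.72 and 9.48 CPM at 2 h. Both were chosen after their values were seen. Ndrg1, Ngfr, Vim and Psrc1 were also called higher in both hours. Leaving out a library of 1 h or 2 h cut the 70 calls to between 4 and 25.

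Mitochondrial genes moved by strand, a pattern chosen after its values were seen. The mitochondrial genome is transcribed from both strands as long precursors; the strand listed as plus holds most genes, and the minus strand holds mt-Nd6 and several tRNA genes. Of 5 minus-strand genes tested 4 rose, against 10.4% of all genes. Of the 16 plus-strand genes 0 were called higher and 0 lower, and their median was -0.12. mt-Nd6, a subunit of complex I, went from 66.6 and 104 CPM to 245 and 290 (1.64, SE 0.283, edgeR adjusted p = 0.00169), and by 2.40 in 4HT. mt-Tp, the proline tRNA gene, rose by 2.28 from 18 and 24 counts to 137 and 112. The other risers, also tRNA genes, rest on few counts: mt-Tq went from 9 and 23 to 53 and 44, and mt-Te from 4 and 4 to 15 and 18. Several plus-strand genes were near the floor too, such as mt-Ti and mt-Nd4l, with means of 0.571 and 1.03 CPM at 0 h. Among abundant plus-strand genes the change ran from 0.05 (mt-Nd1) down to that of mt-Nd5. mt-Nd5, which overlaps mt-Nd6 on the other strand, went from 713 and 957 to 419 and 477 CPM and did not pass (-0.90, SE 0.321, edgeR adjusted p = 0.0608). Minus-strand genes took 1.77% and 2.09% of all mitochondrial counts at 0 h and 6.53% and 7.16% at 1 h. No source used here gives the strand setting of the counting; without strand, reads of overlapping genes such as mt-Nd5 and mt-Nd6 cannot be told apart.

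**Figure D5:**
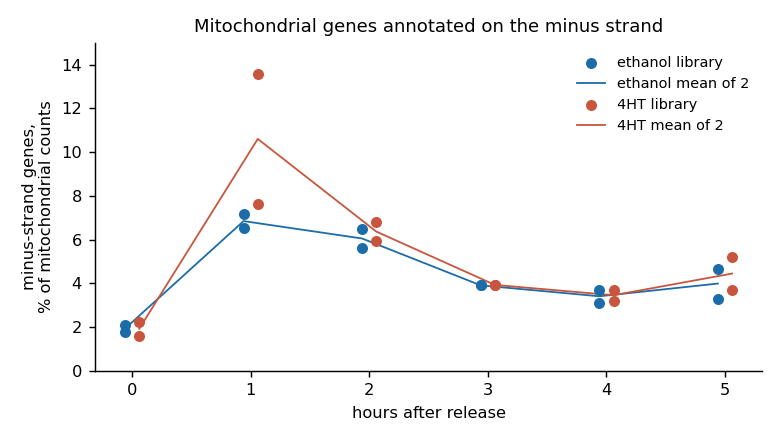
Share (%) of mitochondrial counts on genes annotated on the minus strand, in each library (points) against hours after release, with means of 2 (lines). The ethanol libraries go from 1.77% and 2.09% at 0 h to 6.53% and 7.16% at 1 h and lie between 3.12% and 4.68% at 4 to 5 h.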

How the data were processed

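Nascent RNA was read as whole-number counts per gene, which the authors deposited; the submitters' processing notes name STAR, featureCounts and mm10, while no source used here gives versions, the strand setting or how multiply matching reads were treated. Gene intervals include introns. The members and lists were chosen with earlier results of these data known. Counts of all 24 synchronized libraries were fitted with edgeR 4.0.16 (quasi-likelihood test, 12 groups, TMM, filterByExpr with a minimum count of 10), and p-values were adjusted by the Benjamini-Hochberg method over 17739 genes, with 0.05 as the threshold. Each library held 7953841 to 17936504 counts, so 3 counts correspond to 0.204 to 0.371 CPM in the 4 libraries compared. Named genes were the 15 largest log2 fold changes in each direction among called genes with average log2 CPM of at least 1, a settled symbol and groups that do not overlap, plus up to 5 members of each list by smallest p and Foxd3; other names were added after their values were seen. Promoters came from RefSeq (GRCm38.p6). Counts of 17374 genes were simulated for the ethanol 1 h against 0 h comparison, with the same dispersion for all genes. At each size of change 49 or 50 genes were changed. Among these edgeR recovered 54% of 2-fold rises and 36.7% of falls to 0.5, but 4.08% of 1.5-fold rises and 2% of falls to 0.667. It made 50 calls there against 3249 in the data, so the adjusted threshold was stricter there. These shares are therefore not those of the real comparison. A gene that did not pass may still have changed. Alternatives were DESeq2 1.42.0, other scalings, no filter, fewer groups, removal of the length trend, a replicate block and leaving out each library. Values of some genes are not reported here.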

Additional observations from a re-analysis of the deposited data

How the results depend on the processing

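The 1842 genes higher at 1 h in ethanol became 649 with total counts alone and 491 in a fit of the 12 ethanol libraries; the 1407 lower became 770 with total counts outside Gm26917 and Gm42418, 2641 with no filter, 198 with the 12 ethanol libraries, 2956 with the replicate block and 2211 with the block and the length trend removed. The 1093 genes called in 4HT became 341 with total counts alone, 545 outside the ribosomal loci, 391 with only the compared groups and 1742 with the block and length together. The 70 calls of 2 h against 1 h became 120 with DESeq2, 14 with total counts alone, 34 outside the ribosomal loci, 396 with no filter, 12 with only the compared groups, 2 with the 12 ethanol libraries and 152 with the block and length together. The difference between the arms gave 1499 calls with no filter. The cause was not tested. Leaving out 1 library gave 459 to 2045 higher, 241 to 1166 lower, 234 to 948 in 4HT, 0 to 0 for the difference between arms, 4 to 66 for the next hour, 36 to 59 histone genes and 24 to 29 mitotic genes.

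The labels do not say what a replicate number marks, and with 2 pairs the numbers were not taken to pair the samples. Same-numbered ethanol libraries did deviate together from 0 to 4 h (correlations of 0.328 to 0.713, and 0.404 between 0 h and 1 h), but not with 5 h (-0.374 to 0.27). With the replicate block 2313 genes were higher and 2956 lower, so that 43.9% of the calls were higher, against 56.7% without it. Of 760 list medians over 38 lists and 20 settings, 81 changed sign. With 2 libraries a group, low genes rest on few counts.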
